A study of Mus musculus with 12 samples.

Results

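AP-1 and EGR transcription factors were followed in mouse dendritic cells by RNA sequencing. The members were taken by gene symbol and matched to the Ensembl identifiers of the count tables, which gave 10 genes of 31054: the FOS family (Fos, Fosb, Fosl1, Fosl2), the JUN family (Jun, Junb, Jund), Atf3, and the EGR genes Egr1 and Egr2. All 10 passed the filter on low counts, which left 13141 genes to test. The cells were grown from bone marrow of wild-type C57BL6 mice, and live cells with CD11c, an integrin chain carried by dendritic cells, were enriched on day 7. The 4 groups were tolerogenic cells with lipopolysaccharide (TolDC with LPS), tolerogenic cells without it (TolDC), control cells with LPS (BMDC with LPS) and control cells without it (BMDC), with 3 libraries each. Tolerogenic cells had received vitamin D3 and interleukin 10, and the control cells had received neither. LPS is a bacterial cell wall component sensed by Toll-like receptor 4. The sources used here give neither the doses nor the length of the stimulation, and neither the age of the mice nor whether replicates were separate cultures or animals. The p-values therefore describe the scatter among the libraries at hand, part or all of which may be technical.

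AP-1 is a family of transcription factors that bind DNA as pairs of leucine-zipper proteins. JUN proteins can pair with one another or with FOS proteins, whereas FOS proteins need a JUN partner. ATF3 is a related zipper protein that is best known as a brake on Toll-like receptor responses in mouse macrophages. EGR1 and EGR2 are zinc-finger factors. Many of these genes are immediate-early genes: mitogen-activated protein kinases switch them on within minutes of a stimulus, without new protein synthesis, and their short-lived transcripts then decline.

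The libraries held 21844405 to 41764975 reads assigned to genes, so that 3 counts in a library corresponded to 0.0718 to 0.137 CPM, the read count scaled to a common library size. The CD11c gene Itgax averaged 1378 CPM in TolDC with LPS, 2091 in TolDC, 1357 in BMDC with LPS and 2077 in BMDC. Of 10 dendritic cell markers, 8 or 9 averaged 1 CPM or more in each group. The MHC class II gene H2-Ab1 averaged 1280 CPM in TolDC with LPS, 814 in TolDC, 496 in BMDC with LPS and 331 in BMDC. The low markers were Flt3, at 0.106, 0.231, 1.38 and 0.772 CPM in the same order of groups, and Cd209a, with no counts in either TolDC group. The libraries numbered 1 stood apart in transcripts of other marrow cells. Over 10 granulocyte markers, the summed level was 340 to 735 CPM in these 4 libraries and 991 to 2567 CPM in the other 8. Much of it in the TolDC groups was Mmp8, at 573 CPM with LPS and 460 without. Mmp8 was at 11.4 CPM in BMDC with LPS and 53.3 in BMDC. Of these 10, 1 was called higher and 4 lower in TolDC than in BMDC without LPS, and 1 and 2 with it. All-gene shares were 32.0% higher and 30.4% lower without LPS, and 34.3% and 33.7% with it. Over 7 mast cell and basophil markers the summed level was 29.2 to 72.3 CPM in the libraries numbered 1 and 109 to 262 CPM in the others. At each library number it was higher in TolDC than in BMDC. Without LPS the sums were 72.3, 261 and 262 CPM in TolDC and 29.2, 109 and 110 in BMDC. With LPS they were 71.5, 261 and 220 CPM in TolDC and 29.4, 146 and 130 in BMDC. Of these 7, 1 was called higher in TolDC without LPS and 1 with it, beside the all-gene shares above. Both times it was Kit, at 22.3 against 1.81 CPM without LPS and 23.7 against 4.38 with it. Over 10 monocyte and macrophage markers the summed level was 2689 to 3357 CPM in TolDC with LPS, 2450 to 2494 in TolDC, 2040 to 2706 in BMDC with LPS and 5157 to 5225 in BMDC. Much of that sum was Lyz2, at 626, 1542, 463 and 4280 CPM in the same order of groups, and other markers on the list had another order, such as Adgre1 at 560.1, 125, 289 and 37.3 CPM. Between the libraries numbered 1 and the others of their groups, a split made after seeing the data, 15.3% of all genes were called at an adjusted p below 0.05 (8.82% higher and 6.48% lower in the libraries numbered 1), as were 3 of the 10 members, Atf3, Egr2 and Fosl2, all higher. The part of these cells in the results below was not tested. Each comparison was repeated without the libraries numbered 1. That repeat keeps the libraries with more granulocyte and mast cell transcripts, so it is no test of their part.

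No pattern over the 4 groups was shared by all 10 members. Some members had the same order of group means: Fos, Egr1 and Egr2, then Fosl2 and Jun, and then Fosl1 and Junb. With LPS, Atf3 and Junb were higher and Fos, Egr1, Egr2 and Jund were lower in TolDC and likewise in BMDC. TolDC without LPS held more Egr1, Fosl1, Fosb, Fosl2, Junb, Jun, Egr2 and Jund than BMDC and somewhat less Atf3, and Fos was not called. Under LPS these gaps were smaller for Egr1, Fosl1, Fosl2, Junb, Jun and Egr2, and they were reversed for Fosb and Jund. Genes were called at an adjusted p below 0.05 in edgeR's quasi-likelihood test, adjusted over all genes tested. In TolDC, LPS raised 3 of the 10 members, lowered 5 and left 2 uncalled, where 35.4% of all genes were called higher and 35.9% lower. In BMDC it raised 6 and lowered 4, where 36.7% of all genes were called higher and 36.4% lower. With 71.3% and 73.2% of all genes called in TolDC and in BMDC, the number of members called is close to the background, and what follows describes sizes and directions. Changes of at least 2-fold were called for 6 members in TolDC and 7 in BMDC, against 20.3% and 22.2% of all genes. The libraries with and without LPS did not overlap for 9 members in TolDC (all but Fosl2) and 10 in BMDC, against 75.6% and 74.8% of all genes. In bulk RNA, fewer cells of a type and less RNA per cell cannot be told apart.

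**Figure D1:**
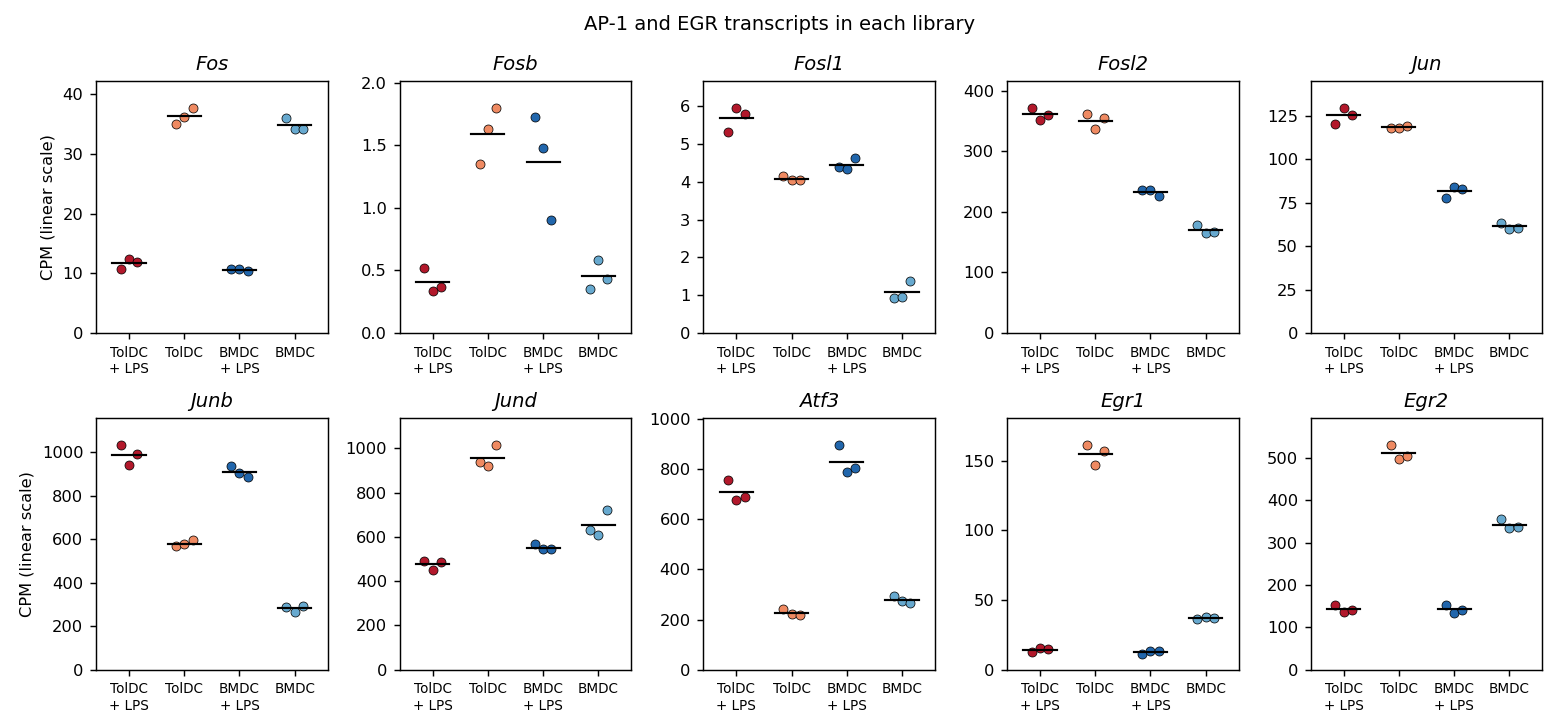
CPM of each member on a linear axis in the 12 libraries, by group, with points for libraries and lines for the mean of 3. Egr1 stands at 147 to 162 CPM in TolDC and at or below 37.8 CPM in the other 9 libraries, while Atf3 and Junb are high in all 6 libraries with LPS.

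The stretches before the transcription starts of 4 members are shown because Atf3 and Junb rose and Fos and Egr2 fell with LPS. They are the 250 bases upstream of the RefSeq start on GRCm38.p6, 5′ to 3′ on the gene's own strand. Capitals mark matches, on either strand, to the AP-1 element (TGANTCA), the CRE-type element (TGACNTCA), the CRE core (TGACGT), the EGR element (GCGNGGGCG), the CArG box bound by serum response factor, or the kappaB site.
Atf3, chr1:191183334-191183583, minus strand: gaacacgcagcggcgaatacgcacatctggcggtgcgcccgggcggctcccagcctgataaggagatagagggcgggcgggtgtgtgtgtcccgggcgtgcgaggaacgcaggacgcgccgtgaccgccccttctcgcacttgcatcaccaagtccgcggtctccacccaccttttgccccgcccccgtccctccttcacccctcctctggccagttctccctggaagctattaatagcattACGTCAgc
Junb, chr8:84978749-84978998, minus strand: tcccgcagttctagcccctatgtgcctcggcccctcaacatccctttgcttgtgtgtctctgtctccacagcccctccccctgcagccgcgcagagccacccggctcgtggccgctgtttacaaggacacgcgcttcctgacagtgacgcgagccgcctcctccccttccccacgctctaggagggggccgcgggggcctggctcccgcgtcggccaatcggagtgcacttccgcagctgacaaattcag
Fos, chr12:85473640-85473889, plus strand: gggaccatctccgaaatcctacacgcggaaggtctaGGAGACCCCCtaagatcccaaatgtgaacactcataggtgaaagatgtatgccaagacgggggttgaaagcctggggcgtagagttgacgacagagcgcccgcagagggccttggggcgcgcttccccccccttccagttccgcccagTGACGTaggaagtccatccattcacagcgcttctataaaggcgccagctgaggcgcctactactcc
Egr2, chr10:67537619-67537868, plus strand: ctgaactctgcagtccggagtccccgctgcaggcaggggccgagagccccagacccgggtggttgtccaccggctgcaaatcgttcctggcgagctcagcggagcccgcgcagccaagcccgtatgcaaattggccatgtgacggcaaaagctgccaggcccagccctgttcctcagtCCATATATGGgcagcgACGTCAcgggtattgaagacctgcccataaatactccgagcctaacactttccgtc
The capitals in Atf3 are a CRE core at bases −8 to −3, counted from −1 just before the start. The Atf3 window lies inside the annotated gene, whose start on the minus strand is at 191218039. Fos holds a kappaB match at −214 to −205 and a CRE core at −66 to −61. Egr2 holds a CArG box at −72 to −63 and a CRE core at −56 to −51. This is 1 of 5 Egr2 windows, picked after the motif search, and 1 of 3 overlapping ones that hold both motifs. It lies inside the annotated gene, and the window at the gene's annotated start, chr10:67535249-67535498, has no match. Junb has no match to these motifs in this window. RefSeq windows were matched for 8 members, all but Fosl1 and Egr1. The AP-1 element was in none of the 8 members and in 6.75% of all 32817 windows. The CRE-type element was in Jun alone, as TGACATCA at −45 to −38, and in 7.49% of windows. The CRE core was in Atf3, Egr2 and Fos and in 6.46% of windows. The EGR element was in Fosb and Fosl2 and in 4.70% of windows. The kappaB site was in Fos, Fosb and Fosl2 and in 3.90% of windows. The CArG box was in Egr2 and in 1.47% of windows. These matches describe the letters only. The RefSeq start of Jund lies upstream of the gene's start in the annotation used for positions, so its window is less certain.

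Fos encodes the prototype FOS protein (ENSMUSG00000021250, chromosome 12, 85473890 to 85477273 of GRCm38, plus strand). It was at 10.8, 12.4 and 11.9 CPM in TolDC with LPS, against 35.1, 36.2 and 37.7 CPM in TolDC. In BMDC with LPS it was at 10.7, 10.7 and 10.4 CPM, against 36.0, 34.2 and 34.2 CPM in BMDC. All 6 libraries with LPS lay below all 6 without it. The log2 change with LPS was −1.63 ± 0.058 (SE) in TolDC and −1.71 ± 0.061 in BMDC (edgeR adjusted p = 1.01e-14 and 9.08e-15). These responses differed by 0.080 ± 0.085 (edgeR adjusted p = 0.480). TolDC and BMDC libraries overlapped without LPS, with a log2 difference of 0.062 ± 0.054 (edgeR adjusted p = 0.334). With LPS the difference was 0.14 ± 0.066 (edgeR adjusted p = 0.0642), and it was called without TolDC with LPS replicate 1 (0.18, adjusted p = 0.0257).

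Fosl2 (FRA-2), a FOS protein that lacks the strong activation domain of FOS, was the most abundant FOS-family transcript per kilobase of exon in every group (ENSMUSG00000029135, chromosome 5, 32135801 to 32157842, plus strand). It was at 372, 353 and 359.9 CPM in TolDC with LPS and at 362, 337 and 355 CPM in TolDC. BMDC with LPS had 236, 236 and 226 CPM, and BMDC had 179, 165 and 168 CPM. The TolDC groups overlapped, and both lay above the BMDC groups, which were apart from each other. LPS changed Fosl2 by 0.042 ± 0.041 on the log2 scale in TolDC (edgeR adjusted p = 0.377) and by 0.45 ± 0.042 in BMDC (edgeR adjusted p = 1.55e-08). TolDC minus BMDC, the responses differed by −0.41 ± 0.059 (edgeR adjusted p = 1.89e-05). TolDC exceeded BMDC by 0.64 ± 0.042 with LPS and by 1.04 ± 0.042 without it (edgeR adjusted p = 1.40e-10 and 1.41e-13).

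Fosl1 (FRA-1), its close relative, was a rare transcript with 26 to 234 counts in a library (ENSMUSG00000024912, chromosome 19, 5447547 to 5455946, plus strand). It stood at 5.32, 5.95 and 5.80 CPM in TolDC with LPS, against 4.16, 4.04 and 4.05 CPM in TolDC. It stood at 4.40, 4.33 and 4.63 CPM in BMDC with LPS, against 0.917, 0.940 and 1.38 CPM in BMDC. The BMDC libraries without LPS were the low ones, and no groups overlapped. The log2 change with LPS was 0.48 ± 0.12 in TolDC and 2.06 ± 0.15 in BMDC (edgeR adjusted p = 0.00131 and 3.84e-10), a difference of −1.59 ± 0.19 (adjusted p = 2.47e-06). TolDC exceeded BMDC by 0.35 ± 0.12 with LPS and by 1.94 ± 0.15 without it (edgeR adjusted p = 0.0122 and 2.05e-09). The TolDC to BMDC call with LPS was lost with the libraries numbered 2 and 3 of each group summed (0.33, adjusted p = 0.0537). Fosl1 overlaps Ccdc85b on the opposite strand.

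Fosb, the remaining FOS gene, was at the edge of detection with 10 to 51 counts in a library (ENSMUSG00000003545, chromosome 7, 19302696 to 19310051, minus strand). It was at 0.522, 0.336 and 0.372 CPM in TolDC with LPS, against 1.35, 1.63 and 1.80 CPM in TolDC. It was at 1.72, 1.47 and 0.899 CPM in BMDC with LPS, against 0.353, 0.583 and 0.430 CPM in BMDC. With LPS it was lower in all 3 TolDC libraries and higher in all 3 BMDC libraries. The log2 change was −1.96 ± 0.28 in TolDC and 1.58 ± 0.30 in BMDC (edgeR adjusted p = 5.11e-06 and 9.76e-05). The difference between the responses, −3.54 ± 0.41, was the widest among the 10 members (edgeR adjusted p = 1.33e-06). Between the cell types the sign also turned: TolDC over BMDC was −1.75 ± 0.29 with LPS and 1.79 ± 0.29 without it (edgeR adjusted p = 3.27e-05 and 2.77e-05).

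Junb encodes a JUN protein that rises strongly with growth factors and cytokines (ENSMUSG00000052837, chromosome 8, 84974484 to 84978718, minus strand). It was at 1034, 942 and 989.6 CPM in TolDC with LPS, against 567, 576 and 597 CPM in TolDC. BMDC with LPS had 936, 904 and 887 CPM, against 289, 266 and 295 CPM in BMDC. Both groups with LPS lay above both without it. LPS raised Junb by 0.77 ± 0.045 on the log2 scale in TolDC and by 1.68 ± 0.046 in BMDC (edgeR adjusted p = 1.57e-11 and 2.07e-16). The responses differed by −0.91 ± 0.063 (edgeR adjusted p = 2.25e-09). TolDC exceeded BMDC by 1.03 ± 0.045 without LPS (edgeR adjusted p = 4.91e-13). With LPS the groups were nearly level, with a difference of 0.12 ± 0.045 (edgeR adjusted p = 0.0226). That call was lost without BMDC with LPS replicate 2 (0.12, adjusted p = 0.0552) or 3 (0.10, 0.0881), and without TolDC with LPS replicate 1 (0.076, 0.146) or 3 (0.12, 0.0521). It was also lost with the libraries numbered 2 and 3 summed (0.12, 0.0661). Junb overlaps Prdx2 on the opposite strand.

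Jund, which encodes a JUN protein known for steady expression in resting cells, went the other way (ENSMUSG00000071076, chromosome 8, 70698949 to 70700616, plus strand). It was at 491, 451 and 485 CPM in TolDC with LPS, against 939.8, 919 and 1017 CPM in TolDC. It was at 567, 543 and 544 CPM in BMDC with LPS, against 633, 610.4 and 721 CPM in BMDC. No groups overlapped, and TolDC held both the highest level without LPS and the lowest with it. The log2 change with LPS was −1.01 ± 0.056 in TolDC and −0.25 ± 0.056 in BMDC (edgeR adjusted p = 2.09e-11 and 6.96e-04), a difference of −0.76 ± 0.079 (adjusted p = 5.33e-07). TolDC over BMDC was −0.21 ± 0.056 with LPS and 0.55 ± 0.056 without it (edgeR adjusted p = 0.00269 and 1.47e-07). Without the 4 libraries numbered 1, the fall in BMDC (−0.29, adjusted p = 0.0644) and the difference with LPS (−0.21, adjusted p = 0.144) were not called. Jund overlaps an antisense gene, Gm11175, and its count without regard to strand was 41.1% to 46.5% of the stranded count used here.

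Jun itself, the founding member, varied least over the groups together with Jund and Fosl2 (ENSMUSG00000052684, chromosome 4, 95049034 to 95052222, minus strand). It had 120.4, 129 and 126 CPM in TolDC with LPS, against 118, 118 and 119 CPM in TolDC. It had 77.6, 83.8 and 82.97 CPM in BMDC with LPS, against 63.1, 60.1 and 60.7 CPM in BMDC. TolDC libraries were all above BMDC libraries, by 0.62 ± 0.040 on the log2 scale with LPS and by 0.95 ± 0.041 without it (edgeR adjusted p = 1.27e-10 and 3.94e-13). LPS raised Jun in BMDC by 0.41 ± 0.042 (edgeR adjusted p = 4.75e-08). In TolDC the change was 0.081 ± 0.040 (edgeR adjusted p = 0.0745). This change was called without TolDC with LPS replicate 1 (0.12, adjusted p = 0.0233), without BMDC with LPS replicate 1 (0.083, 0.046) and without the 4 libraries numbered 1 (0.10, 0.00413). It was also called with the library number as a replicate block (0.081, adjusted p = 0.0369). The difference between the responses was −0.33 ± 0.057 (edgeR adjusted p = 1.39e-04). Jun overlaps an antisense gene, Junos.

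Atf3 rose with LPS in both cell types (ENSMUSG00000026628, chromosome 1, 191170296 to 191218039, minus strand). It was at 755, 679 and 689 CPM in TolDC with LPS, against 241, 223 and 217 CPM in TolDC. It was at 898, 788 and 804 CPM in BMDC with LPS, against 293, 276 and 265 CPM in BMDC. All 6 libraries with LPS lay above all 6 without it. The rise was 3.12-fold in TolDC and 2.98-fold in BMDC, or 1.64 ± 0.059 and 1.58 ± 0.059 on the log2 scale (edgeR adjusted p = 5.54e-14 and 7.68e-14). The responses differed by 0.062 ± 0.081 (edgeR adjusted p = 0.574). TolDC over BMDC was slightly below 0, at −0.23 ± 0.057 with LPS and −0.29 ± 0.058 without it (edgeR adjusted p = 0.00175 and 2.99e-04).

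Genes of the integrated stress response, in which the factor ATF4 is known to switch on Atf3, were tested as a list of 8. LPS raised all 8 in TolDC, with a median log2 change of 1.198, and 7 of 8 in BMDC, with a median of 0.84. The medians of all genes were −0.0017 in TolDC and −0.00029 in BMDC, and 35.4% and 36.7% of all genes were called higher. Ddit3, which encodes the stress factor CHOP, averaged 66.6 ± 3.04 CPM in TolDC with LPS and 23.5 ± 1.19 in TolDC (SD, n = 3 each). Its levels were 55.9 ± 2.35 CPM in BMDC with LPS and 29.4 ± 1.14 in BMDC. Slc7a11, the cystine importer, averaged 804 ± 29.8 CPM in TolDC with LPS and 239 ± 17.4 in TolDC. It averaged 895 ± 77.9 CPM in BMDC with LPS and 301 ± 26.5 in BMDC. Of the same 8 genes, 5 were higher and 1 lower in TolDC than in BMDC with LPS, and 2 were higher and 2 lower without it. The shares of all genes were 34.3% higher and 33.7% lower with LPS, and 32.0% and 30.4% without it. The LPS response was called larger in TolDC for 4 of the 8 and smaller for 1 (median difference 0.31), against 20.4% and 24.0% of all genes. Atf4 itself rose by 1.03 in TolDC and by 0.43 in BMDC, a difference of 0.60 (edgeR adjusted p = 1.01e-07). For Atf3 the difference, 0.062, was not called.

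Egr1, the best studied EGR factor, had the largest span among the members (ENSMUSG00000038418, chromosome 18, 34859823 to 34864984, plus strand). It was at 12.8, 15.8 and 14.8 CPM in TolDC with LPS, against 162, 147 and 157 CPM in TolDC. It was at 11.2, 13.6 and 13.3 CPM in BMDC with LPS, against 36.4, 37.8 and 37.5 CPM in BMDC. The TolDC libraries without LPS stood alone at the top, 12.2 times the mean of BMDC with LPS. Egr1 was 10.7-fold lower with LPS in TolDC and 2.95-fold lower in BMDC, or −3.42 ± 0.068 and −1.56 ± 0.075 on the log2 scale (edgeR adjusted p = 9.65e-18 and 2.09e-12). The difference between the responses was −1.86 ± 0.10 (edgeR adjusted p = 2.07e-10). TolDC exceeded BMDC by 2.06 ± 0.063 without LPS (edgeR adjusted p = 8.72e-15). With LPS the libraries of TolDC and BMDC overlapped. The TolDC over BMDC difference there, 0.20 ± 0.080, was narrowly called (edgeR adjusted p = 0.0384). It was not called in 10 of 21 alternatives, among them those without BMDC with LPS replicate 1 (0.11, adjusted p = 0.246), BMDC replicate 3 (0.18, 0.0783), or TolDC with LPS replicate 2 (0.14, 0.154) or 3 (0.18, 0.0999).

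Egr2, a factor known in mice for restraining lymphocyte activation and for marking alternatively activated macrophages, followed Egr1 at a higher level and over a smaller span (ENSMUSG00000037868, chromosome 10, 67535475 to 67542188, plus strand). It was at 154, 137 and 142 CPM in TolDC with LPS, against 531, 499 and 504 CPM in TolDC. It was at 153, 133 and 142 CPM in BMDC with LPS, against 356, 335 and 336 CPM in BMDC. The log2 change with LPS was −1.83 ± 0.053 in TolDC and −1.26 ± 0.053 in BMDC (edgeR adjusted p = 7.47e-16 and 1.27e-13), a difference of −0.57 ± 0.074 (adjusted p = 6.07e-06). TolDC exceeded BMDC by 0.58 ± 0.052 without LPS (edgeR adjusted p = 1.63e-08). With LPS the libraries overlapped and the difference was 0.014 ± 0.053 (edgeR adjusted p = 0.831).

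Of the other EGR genes, Egr3 was tested and Egr4 was too low to test. Egr3 was rare and moved against Egr1 and Egr2. It averaged 8.18 ± 0.895 CPM in TolDC with LPS, 2.33 ± 0.479 in TolDC, 5.27 ± 0.840 in BMDC with LPS and 2.51 ± 0.387 in BMDC (SD, n = 3 each). LPS raised it by 1.80 ± 0.16 on the log2 scale in TolDC and 1.05 ± 0.16 in BMDC (edgeR adjusted p = 5.32e-09 and 1.22e-05). Nab2, a co-repressor that binds EGR proteins and is a known EGR1 target, averaged 38.4 ± 2.00 CPM in TolDC with LPS and 77.3 ± 2.72 in TolDC. It averaged 21.0 ± 0.877 CPM in BMDC with LPS and 31.9 ± 0.606 in BMDC. Its log2 change with LPS was −1.01 in TolDC and −0.60 in BMDC (edgeR adjusted p = 4.19e-13 and 5.68e-09). In Nab2, TolDC exceeded BMDC by 1.28 ± 0.048 without LPS and by 0.87 ± 0.051 with it (edgeR adjusted p = 4.15e-14 and 2.92e-11). Nab1, the related co-repressor, rose with LPS by 1.22 ± 0.074 in TolDC and by 0.51 in BMDC (edgeR adjusted p = 9.39e-11 and 4.70e-06).

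**Figure D2:**
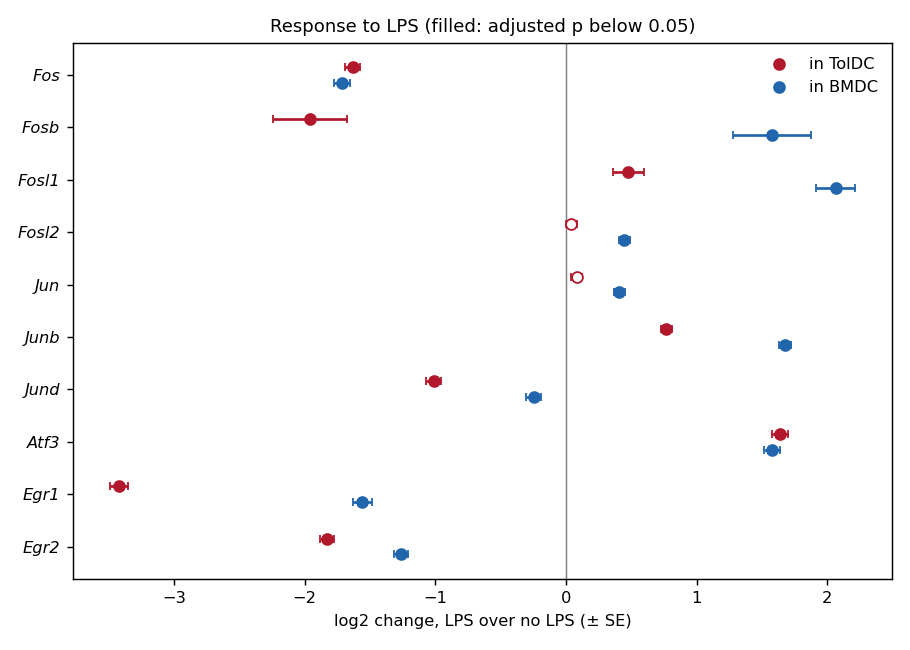
Log2 change with LPS (x axis, edgeR estimate ± SE) for each member in TolDC and in BMDC, with filled points for adjusted p below 0.05. The estimate in TolDC lies left of that in BMDC for the 8 members whose responses differed, from −3.42 against −1.56 for Egr1 to 0.08 against 0.41 for Jun, and Fosb lies on opposite sides of 0.

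The difference between the LPS responses was called for 8 of the 10 members, in each case with the lower value in TolDC, where 24.0% of all genes were called in that direction and 44.4% in either. The remaining members were Fos and Atf3. The members' median difference was −0.66 on the log2 scale, and that of all genes was −0.0095. Called differences of at least 2-fold were found for 3 members, Fosb, Egr1 and Fosl1, against 8.29% of all genes. No member was called in the other direction, against 20.4% of all genes. The 8 members do not form one kind of response. Egr1, Egr2 and Jund fell in both cell types and fell further in TolDC. Junb and Fosl1 rose in both and rose less in TolDC. Fosl2 and Jun rose in BMDC and were not called in TolDC, and Fosb fell in TolDC and rose in BMDC. Each of these 8 kept its call and direction without the 4 libraries numbered 1.

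**Figure D3:**
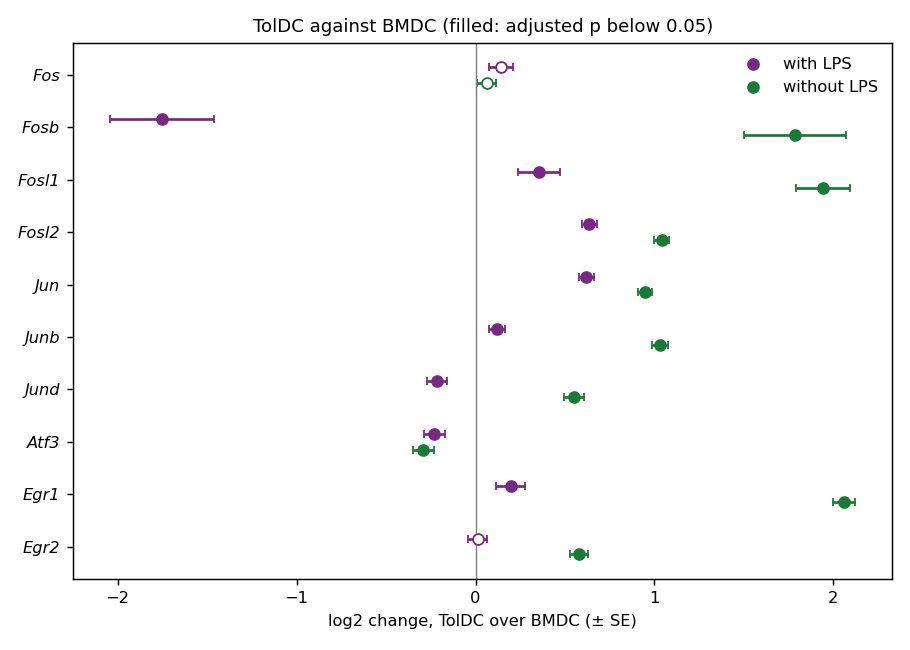
Log2 change of TolDC over BMDC (x axis, edgeR estimate ± SE) for each member with and without LPS, with filled points for adjusted p below 0.05. Without LPS 9 members lie right of 0, 8 of them called, up to 2.06 for Egr1, and with LPS all members other than Fosb lie between −0.23 and 0.64.

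Without LPS, TolDC over BMDC was called higher for 8 of the 10 members and lower for Atf3, where 32.0% of all genes were called higher and 30.4% lower, or 62.4% in either direction. The libraries did not overlap for 9 members, all but Fos, against 66.9% of all genes. The members' median log2 change was 0.99, against 0.0091 over all genes. The calls were 8 higher and 1 lower without the libraries numbered 1 as well. With LPS 5 members were called higher and 3 lower, where 34.3% of all genes were called higher and 33.7% lower, or 67.9% in either direction. The libraries did not overlap for 8 members, all but Egr1 and Egr2, against 71.4% of all genes, and the median was 0.13 against 0.024 over all genes. Without the libraries numbered 1 these counts were 6 higher and 2 lower, and with the libraries numbered 2 and 3 summed they were 2 higher and 3 lower. One member with LPS, Fosb, was called with a change of at least 2-fold, where 16.3% of all genes were. Without LPS 5 members were, where 14.5% of all genes were. The contrasts share groups of libraries, so the values with and without LPS are given side by side and were compared only through the difference between the LPS responses.

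Levels of different members were compared per kilobase of exon. On this scale Jund led in TolDC, at 575 ± 30.8 CPM per kilobase, and in BMDC, at 393 ± 34.98 (SD, n = 3 each). Junb led with LPS, at 429.7 ± 19.996 CPM per kilobase in TolDC and 395 ± 10.7 in BMDC, where the libraries of Junb overlapped those of Atf3 (385 ± 27.5). Fosb was the lowest in every group, and Fosl1 the next lowest. The order was Junb, Atf3, Jund, Egr2, Jun, Fosl2, Fos, Egr1, Fosl1 and Fosb in both groups with LPS, with Egr2, Jun and Fosl2 overlapping their neighbours in TolDC, as did Egr1 and Fosl1, and with Jun overlapping Fosl2 in BMDC.

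**Figure D4:**
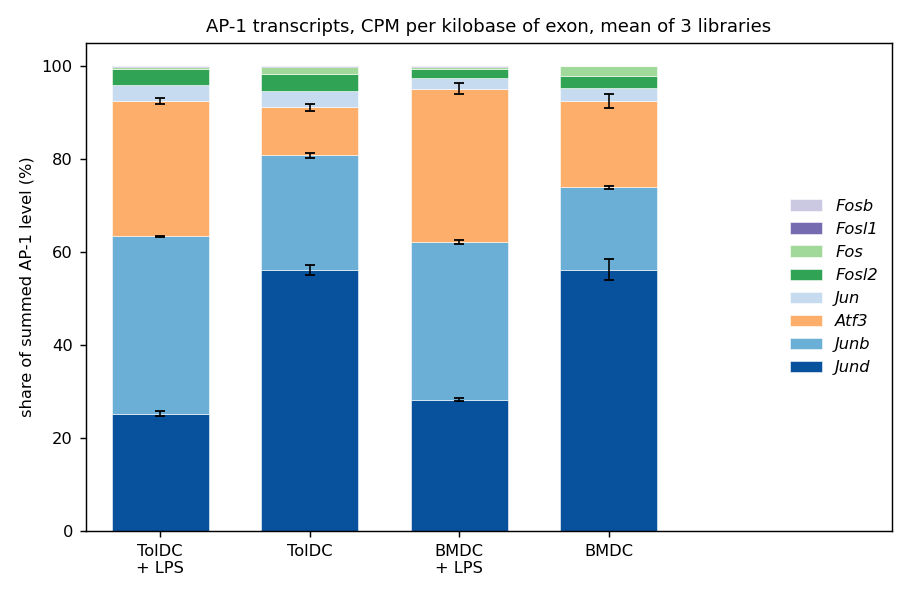
Share of each of the 8 AP-1 transcripts (y axis, percent of their summed CPM per kilobase of exon) by group, as means of 3 libraries with SD bars for the largest 3. Jund takes 25.3% in TolDC with LPS and 28.3% in BMDC with LPS, against 56.1% in TolDC and 56.3% in BMDC.

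Jund, Junb and Atf3 made up most of the 8 AP-1 transcripts, in shares that were further apart between LPS and no LPS than between the cell types. Jund took 25.3% ± 0.498 of the summed level in TolDC with LPS, against 56.1% ± 1.09 in TolDC, and 28.3% ± 0.388 in BMDC with LPS, against 56.3% ± 2.24 in BMDC (SD, n = 3 each). Junb took 38.1% ± 0.160 in TolDC with LPS, against 24.6% ± 0.466 in TolDC, and 33.9% ± 0.526 in BMDC with LPS, against 17.7% ± 0.345 in BMDC. The share of Atf3 was 29.1% ± 0.681 in TolDC with LPS, against 10.3% ± 0.782 in TolDC, and 33.0% ± 1.11 in BMDC with LPS, against 18.6% ± 1.58 in BMDC. The 4 FOS-family genes together took 4.01%, 5.28%, 2.65% and 4.74% in TolDC with LPS, TolDC, BMDC with LPS and BMDC, most of it Fosl2 (3.31%, 3.55%, 2.06% and 2.53%). The summed AP-1 level was 1128 ± 48.9 CPM per kilobase in TolDC with LPS, 1023 ± 34.95 in TolDC, 1167 ± 44.7 in BMDC with LPS and 697 ± 37.3 in BMDC, so BMDC without LPS stood below the other groups. These shares depend on the exon lengths of the annotation and on the stranded count of Jund. Counted without regard to strand, the Junb share in TolDC (35.97%) was further from that in BMDC (25.7%) than from that in TolDC with LPS (44.8%).

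Other zipper factors of the same superfamily were tested as a list of 20. LPS raised 13 and lowered 3 in TolDC, with a median log2 change of 0.34, and raised 14 and lowered 4 in BMDC, with a median of 0.44. Among all genes 35.4% were called higher and 35.9% lower in TolDC (median −0.0017), and 36.7% and 36.4% in BMDC (median −0.00029). Maf rose in TolDC, at 26.6 ± 5.58 CPM with LPS and 6.56 ± 0.615 without it (log2 change 2.01 ± 0.22, edgeR adjusted p = 1.71e-05). It rose less in BMDC, at 12.4 ± 3.30 CPM with LPS and 6.58 ± 0.590 without it (0.90, edgeR adjusted p = 0.00586). Batf3, which conventional dendritic cells of the cross-presenting type need in mice, averaged 64.3 ± 1.72 CPM in TolDC with LPS and 167 ± 3.52 in BMDC with LPS (log2 change −1.38 ± 0.041, edgeR adjusted p = 1.22e-15). Without LPS the gap was similar, at 49.8 ± 1.65 CPM in TolDC and 123 ± 5.15 in BMDC (−1.31 ± 0.042, edgeR adjusted p = 5.65e-15). Batf2 averaged 29.3 ± 2.57 CPM in TolDC and 10.6 ± 1.19 in BMDC (1.47 ± 0.16, edgeR adjusted p = 1.05e-05). With LPS the direction turned, at 17.5 ± 1.41 CPM in TolDC and 23.4 ± 5.09 in BMDC (log2 change −0.41, edgeR adjusted p = 0.0326). Without LPS, 5 of the 20 were higher and 8 lower in TolDC, and with LPS 6 were higher and 11 lower. The shares of all genes were 32.0% higher and 30.4% lower without LPS, and 34.3% and 33.7% with it.

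Kinases and factors known to act upstream of AP-1 and EGR genes had small median changes. Of 27 tested, LPS raised 14 and lowered 11 in TolDC, with a median log2 change of 0.17, and raised 16 and lowered 9 in BMDC, with a median of 0.20. Among all genes 35.4% were called higher and 35.9% lower in TolDC, and 36.7% and 36.4% in BMDC. Mapkapk2, the kinase downstream of p38 that stabilises cytokine transcripts, averaged 498 ± 26.9 CPM in TolDC with LPS and 236 ± 9.34 in TolDC. It averaged 556 ± 8.13 CPM in BMDC with LPS and 258 ± 6.10 in BMDC. Map3k8, which links Toll-like receptors to ERK, rose by 0.95 in TolDC and by 1.06 in BMDC (edgeR adjusted p = 4.68e-11 and 7.12e-12), and the difference between these responses was not called (−0.11, adjusted p = 0.310). Without LPS, 9 of the 27 were higher and 7 lower in TolDC, where 32.0% of all genes were called higher and 30.4% lower. The largest of these 27 changes among genes with at least 5 CPM were those of Map3k7 (0.63 ± 0.045, edgeR adjusted p = 6.57e-10) and Mapkapk3 (−0.55 ± 0.037, edgeR adjusted p = 3.06e-10). RNA levels do not show the activity of these kinases.

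The other immediate-early genes were a list of 15. With LPS 9 rose and 5 fell in TolDC, and 10 rose and 4 fell in BMDC, with median log2 changes of 0.36 and 0.40. Among all genes 35.4% were called higher and 35.9% lower in TolDC, and 36.7% and 36.4% in BMDC. Dusp1, a phosphatase that switches off p38 and JNK, averaged 129 ± 10.4 CPM in TolDC with LPS and 23.4 ± 0.689 in TolDC, and 187 ± 10.5 in BMDC with LPS and 27.1 ± 1.28 in BMDC. Gadd45b, a stress-induced signalling protein, averaged 221 ± 6.05 CPM in TolDC with LPS and 20.8 ± 1.77 in TolDC, and 332 ± 9.34 in BMDC with LPS and 50.6 ± 0.648 in BMDC. Klf4, a factor of monocyte differentiation, averaged 5.22 ± 0.178 CPM in TolDC with LPS and 24.4 ± 2.39 in BMDC with LPS (log2 change −2.23 ± 0.076, edgeR adjusted p = 9.23e-15). Btg2, a brake on the cell cycle, averaged 90.2 ± 0.930 CPM in TolDC with LPS and 165 ± 3.40 in TolDC, but 108 ± 4.03 in BMDC with LPS and 82.2 ± 3.32 in BMDC. Its responses differed by −1.27 ± 0.056 (edgeR adjusted p = 6.04e-12). Sgk1, a kinase related to AKT, differed more and the other way, by 2.12 ± 0.059 (edgeR adjusted p = 1.03e-14). It averaged 159 ± 6.52 CPM in TolDC with LPS and 54.2 ± 1.33 in TolDC, but 85.1 ± 3.67 in BMDC with LPS and 126 ± 1.202 in BMDC. In TolDC over BMDC, 6 of the 15 were higher and 8 lower without LPS, where 32.0% of all genes were called higher and 30.4% lower.

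Heat shock genes, which rise with stress and handling of cells, were tested as a list of 10. TolDC held less of 8 and more of 1 without LPS (median log2 change −0.28), and less of 9 and more of 1 with LPS (median −0.44). The shares of all genes were 30.4% lower and 32.0% higher without LPS, and 33.7% and 34.3% with it. LPS raised 5 and lowered 3 in TolDC and raised 7 and lowered 2 in BMDC. Among all genes 35.4% were called higher and 35.9% lower in TolDC, and 36.7% and 36.4% in BMDC. Hspa1a, an inducible HSP70 gene with a near-identical copy that makes its count uncertain, averaged 5.12 ± 0.290 CPM in TolDC with LPS, 1.11 ± 0.144 in TolDC, 19.4 ± 0.931 in BMDC with LPS and 2.47 ± 0.264 in BMDC. The part of handling in the levels of the 10 members was not tested.

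Genes known as targets of AP-1 or EGR factors in other settings were a list of 16. LPS raised 9 and lowered 5 in TolDC and raised 8 and lowered 6 in BMDC, with median log2 changes of 0.89 and 0.46. Among all genes 35.4% were called higher and 35.9% lower in TolDC, and 36.7% and 36.4% in BMDC. TolDC exceeded BMDC in 9 and were lower in 5 without LPS (median 0.44), and exceeded it in 11 and were lower in 5 with LPS (median 0.67). The shares of all genes were 32.0% higher and 30.4% lower without LPS, and 34.3% and 33.7% with it. Pdgfa, a growth factor of mesenchymal cells and a known EGR1 target, averaged 481 ± 16.2 CPM in TolDC and 4.67 ± 2.10 in BMDC (log2 change 6.73 ± 0.21, edgeR adjusted p = 4.68e-09). With LPS it averaged 307 ± 31.4 CPM in TolDC and 8.39 ± 0.801 in BMDC. F3, the tissue factor of coagulation, averaged 7.68 ± 0.817 CPM in TolDC and 1.06 ± 0.0981 in BMDC (2.86 ± 0.13, edgeR adjusted p = 1.04e-12). Mmp13, a collagenase and a classical AP-1 target, averaged 198 ± 10.8 CPM in TolDC with LPS and 11.0 ± 0.0843 in TolDC, but 11.0 ± 1.15 in BMDC with LPS and 28.9 ± 0.960 in BMDC. Its responses to LPS differed by 5.56 ± 0.089 on the log2 scale (edgeR adjusted p = 2.16e-18). Il6 and Timp1 rose most with LPS in both cell types and were among the 5 lower in TolDC with LPS. Il6 averaged 280 ± 11.7 CPM in TolDC with LPS and 463 ± 11.6 in BMDC with LPS (−0.72, edgeR adjusted p = 2.20e-04). Timp1 averaged 247 ± 27.4 CPM in TolDC with LPS and 721 ± 73.8 in BMDC with LPS (−1.55, edgeR adjusted p = 9.00e-09).

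The genes whose log2 CPM over the 12 libraries was most like that of each member were found among genes with a mean of at least 5 CPM. Pearson's r is given as a description, since the libraries fall into 4 groups and share them. Junb was most like Ptgs2, the inducible cyclooxygenase (r = 0.998), and Slc16a3, a lactate exporter (0.997). Atf3 was most like Slc7a11 (0.998), which is in the stress response list above, and C9orf72 (0.997). Egr1 was most like Csk, a kinase that inhibits the SRC family (0.995). Egr2 was most like Alg13 (0.998) and Elmo2 (0.997), and Fos was most like Fam91a1 (0.997) and Slc45a4 (0.997). Jun was most like Smad7, an inhibitor of TGF-beta signalling (0.995), and Kit, the stem cell factor receptor (0.993). Fosl2 was most like Trak1 and Nrip1 (0.997 each), and Fosl1 was most like Prkce (0.993) and Hmga1 (0.992). Jund had Hhex (0.984) and Agap2 (0.981), and Fosb had Rangap1 (0.970) and Tbc1d10b (0.945), the loosest matches among the 10. Likeness is in shape and not in size. For example, Csk averaged 137 ± 3.76 CPM in TolDC with LPS and 272 ± 4.22 in TolDC, where Egr1 was 10.7-fold lower with LPS.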

How the data were processed

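The tables hold raw read counts per gene, which the authors deposited without normalization for 12 libraries of live, CD11c-enriched cells. Per the submitters' processing notes, reads were trimmed with cutadapt and aligned and counted with STAR against mm10 (GRCm38), and edgeR and limma were also used. The sources used here give no versions, settings or annotation. Of the reads in a table, 79.3% to 80.6% were assigned to genes, 9.34% to 9.85% matched several places and were not counted, 7.10% to 8.01% lay outside genes, 1.04% to 1.18% were ambiguous and 1.52% to 2.11% unmapped. These classes were left out of library sizes. The last count column, 35.2 to 37.3 times the opposite strand, was used, and the unstranded column was an alternative.

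Of 31054 identifiers, 30934 were matched to GENCODE M21 (GRCm38) for symbols, positions and exon lengths. Genes were filtered with filterByExpr, scaled by TMM (factors 0.945 to 1.04) and fitted with a mean per group over all 12 libraries by edgeR's quasi-likelihood method (edgeR 4.0.16, R 4.3.3), with Benjamini-Hochberg adjustment over 13141 genes. The SE is the absolute log2 change over the root of the F statistic. The fit was also run on simulated counts with known changes in 200 genes, independent libraries and the same spread for every gene. The libraries here differ by library number, so that run is no check of the p-values. CPM use the TMM-scaled library sizes, and log2 CPM a prior count of 2. Alternatives were RLE scaling, DESeq2 1.42.0, limma-voom (limma 3.58.1), no filter, the unstranded column, only the groups compared, a replicate block, no libraries numbered 1, libraries numbered 2 and 3 summed, and each library left out.

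The members and lists were chosen with earlier results of these data known. Besides the members and Atf4, the text names up to 2 called genes per list and comparison with the largest change and at least 5 CPM, the 2 genes most like each member, and markers as levels. Not every gene so selected is described, and some are not reported here.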

Additional observations from a re-analysis of the deposited data

Results flagged for a closer look

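For 8 members the LPS response differed between the cell types by edgeR's test of the difference itself (adjusted over all genes), with 3 libraries in each group. As log2 response in TolDC minus that in BMDC, the values were −3.54 for Fosb, −1.86 for Egr1, −1.59 for Fosl1, −0.91 for Junb, −0.76 for Jund, −0.57 for Egr2, −0.41 for Fosl2 and −0.33 for Jun. Fosb was the one member whose responses had opposite signs that were both called, and it rests on 10 to 51 counts in a library.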

How the results depend on the processing

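The numbers of genes called stayed within 1.5 times the main count under every alternative run, and in the leave-one-out fits they were 8862 to 9575 for LPS in TolDC, 9221 to 9709 for LPS in BMDC, 8368 to 9106 and 7542 to 8453 for TolDC over BMDC with and without LPS, and 5244 to 5782 for the difference between the responses. Of the 1040 member values recomputed, 1012 kept their direction and their side of the threshold. The 28 others concern Jun with LPS in TolDC, Jund with LPS in BMDC, and Fos, Fosl1, Junb, Jund, Egr1 and Egr2 in TolDC over BMDC with LPS. For those, the cause was not tested. No fit with only the groups compared was made for the difference between the responses.

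The change of Jun with LPS in TolDC (main 0.081) was called with the replicate block (0.081) and without the 4 libraries numbered 1 (0.10), and ranged over 0.059 to 0.12 in the leave-one-out fits. The fall of Jund in BMDC (main −0.25) was not called without the libraries numbered 1 (−0.29). In TolDC over BMDC with LPS, Fos was called without the libraries numbered 1 (0.20) and Jund was not (−0.21). With the libraries numbered 2 and 3 summed, Fosl1 (0.33) and Junb (0.12) were not called. The call of Egr1 (main 0.20) was lost with RLE scaling (0.18), DESeq2 (0.18), limma-voom (0.20), the unstranded column (0.19), only the groups compared (0.18) and summed libraries (0.18). The value of Egr2 (main 0.014, not called) turned to −0.0055 with RLE scaling and −0.0059 with DESeq2. Leave-one-out ranges there were 0.10 to 0.18 for Fos, 0.076 to 0.16 for Junb, 0.11 to 0.26 for Egr1 and −0.046 to 0.071 for Egr2, with −0.034 without BMDC with LPS replicate 2 and −0.046 without TolDC with LPS replicate 1.

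The library numbers were not used as pairs in the main fit, since the labels do not say what a number marks. The 18 correlations of deviations between same-numbered libraries ran from 0.0910 to 0.466, with 1 of them below 0.1. In those deviations, 10 of 12 libraries were closest to their own number. Pairs of libraries within a group were also set against counting error by a chi-square test. Its p was below 0.05 for 8.08% to 13.4% of genes between the libraries numbered 2 and 3. Between the library numbered 1 and either of these it was so for 19.7% to 30.0% of genes. Whether the libraries numbered 2 and 3 are independent of each other was not tested. The replicate block changed no other call of a member.

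Counted without regard to strand, mean CPM in TolDC with LPS, TolDC, BMDC with LPS and BMDC were 209, 432, 246 and 304 for Jund and 119.5, 112, 77.8 and 58.7 for Jun. Fosl1 moved to 4.18 in TolDC and 4.74 in BMDC with LPS. In BMDC with LPS, Fos moved to 10.9, Fosl2 to 239 and Junb to 936, and Egr1 to 38.1 in BMDC. With RLE scaling Jun in TolDC was 117. In the same order of groups, the unstranded shares were 12.7%, 36.4%, 14.7% and 36.9% for Jund, 44.8%, 35.97%, 40.4% and 25.7% for Junb, 34.0%, 14.998%, 39.3% and 26.8% for Atf3, and 3.88%, 5.17%, 2.46% and 3.67% for Fosl2. Depth limits Fosb most, with 10 to 51 counts in a library.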

Other observations

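Within groups, 3 members differed between the libraries numbered 1 and those numbered 2 and 3, a split chosen after seeing the data. Atf3 was highest in the library numbered 1 in all 4 groups, by 0.14 ± 0.021 on the log2 scale over the groups (edgeR adjusted p = 1.97e-05). Egr2 and Fosl2 were highest there in all 4 groups as well, by 0.11 ± 0.023 and 0.066 ± 0.023 (edgeR adjusted p = 7.93e-04 and 0.0463). The other 7 members were not called (adjusted p = 0.350 to 0.979). For Atf3 and Egr2 these differences are small beside those with LPS, while for Fosl2 the value exceeds its LPS change in TolDC, 0.042. Each LPS response of these 3 members kept its side of the threshold without the libraries numbered 1.

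The 2 co-repressors of EGR factors differed in direction. Nab2 was highest in TolDC, the group where Egr1 and Egr2 were highest, and Nab1 was lowest there, at 20.04 ± 0.429 CPM, against 35.7 ± 2.07 CPM in BMDC (SD, n = 3 each). With LPS, Nab2 did not follow Egr1 and Egr2: TolDC exceeded BMDC by 0.87 on the log2 scale for Nab2, by 0.20 for Egr1 and by 0.014 for Egr2.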
